A study of Mus musculus with 12 samples.

Results

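The lysosome and autophagy genes described here were 40 genes chosen by name, covering the enzymes, membrane proteins, proton pump and regulators of the lysosome and the core proteins that make autophagosomes. Of these, 39 had a probe set of their own on the array, out of 22180 genes with a named probe set, and all 39 lay above the 25th percentile of their array often enough to be tested, together with 18652 genes in all. Glb1, which encodes acid beta-galactosidase, shared its probe set with another gene and was not analysed here. The genes were measured in MP cells, which model Group 3 medulloblastoma, a childhood tumour of the cerebellum that MYC drives, in the mouse. In the published model MP stands for a Myc transgene together with a dominant-negative p53, which would be common to all groups, although the labels do not spell out the alleles. Tumours grown in the cerebella of immunodeficient NSG host mice were made into a suspension of single cells and cultured in neurocult medium with proliferation supplement. The study asked how inhibition of histone deacetylases harms these cells.

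The groups were MP cells with 25 nM LBH589 for 6 h, MP cells with 0.00025% DMSO for 6 h, MP cells with 25 nM LBH589 for 12 h and MP cells with 0.00025% DMSO for 12 h. LBH589 is panobinostat, an inhibitor of histone deacetylases, and DMSO is its solvent. Each group held 3 arrays, from tumours MP525, MP567 and MP570, so the 4 arrays of a tumour are cultures of 1 tumour. Values are log2 expression values as deposited. The median of an array ran from 7.10 to 7.21, and the correlation between arrays from 0.965 to 0.995. Of 7 neural progenitor markers, 6 lay above the array median on every array of each group. Of 6 Group 3 markers, only 2 or 3 did so in any group, and those of the photoreceptor type were dim, with Crx at 6.23 to 6.83 and Nrl at 6.73 to 7.08. Of 4 granule lineage and Sonic hedgehog markers, 3 or 4 did so. Among these markers Msi1 and Npr3 were lower with LBH589 at both times and Prom1 at 12 h, by log2 changes of -1.02 and -1.04, of -1.63 and -1.61 and of -0.98, and Gli1 was higher (0.88 and 0.71; limma adjusted p up to 0.00989). A fit with the tumour as a block called 1 progenitor marker higher and 3 lower at 6 h, and 2 higher and 3 lower at 12 h. Those higher were Nes (0.77 and 1.19) and, at 12 h, Fabp7 (0.76). For Group 3 it called 0 higher and 2 lower, then 0 higher and 1 lower. For the granule lineage it called 2 higher and 1 lower, then 2 higher and 0 lower, with Gli1 and Sfrp1 (0.65 and 0.83) the higher ones. On arrays of whole cultures, fewer cells of a type and less RNA per cell cannot be told apart.

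The lysosome is the acidic compartment in which soluble hydrolases digest proteins, glycans and lipids. A proton pump (V-ATPase) acidifies it, membrane proteins shield and serve it, and small luminal proteins assist the enzymes. Autophagy delivers cytoplasm to it in autophagosomes, whose membrane carries lipid-linked LC3 and GABARAP proteins. Many lysosomal genes carry an E-box with the letters CACGTG in their promoters, within the longer CLEAR motif, and the related transcription factors TFEB, TFE3 and MITF bind it. MYC with its partner MAX binds the same core letters.

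RefSeq promoter windows (GRCm38.p6, 250 bases before to 50 after a start) were at hand for 35 of the 40 genes, and not for Ctsb, Npc1, Atp6v1h, Map1lc3a and Becn1. The hexamer CACGTG, which reads the same on both strands, lay in the windows of 14 of these 35 genes (40%), against 2187 of 27025 genes (8.09%). The octamer TCACGTGA, which contains the hexamer and is also its own complement, lay in those of 6 (17.1%), against 304 genes (1.12%). The CLEAR decamer, which adds a G before the octamer and a C after it, lay in 0 of the 35, against 100 genes (0.37%). The 6 with the octamer were Ctsa, Ctsd, Gla, Mcoln1, Atp6v0d1 and Atp6v1a. Of further genes of the same pathways, 88 had a window. The hexamer lay in 20 of these 88 (22.7%), the octamer in 8 (9.09%) and the decamer in 2 (2.27%). A match describes letters in the window and is not evidence of binding. The windows of 6 genes are printed in the direction of transcription, with each CACGTG in capitals. Lamp1 (chr8:13158911-13159210, plus strand) is shown for its 4 copies, the most of any of these genes. Ctsd (chr7:142387778-142388077, minus strand) and Mcoln1 (chr8:3500269-3500568, plus strand) each hold 2 copies, 1 of them inside the octamer. Atp6v1a (chr16:44139210-44139509, minus strand) holds the octamer and belongs to the pump. Grn (chr11:102430257-102430556, plus strand) and Wipi1 (chr11:109611340-109611639, minus strand) are the members with the largest changes below, and neither window holds the hexamer.
Lamp1: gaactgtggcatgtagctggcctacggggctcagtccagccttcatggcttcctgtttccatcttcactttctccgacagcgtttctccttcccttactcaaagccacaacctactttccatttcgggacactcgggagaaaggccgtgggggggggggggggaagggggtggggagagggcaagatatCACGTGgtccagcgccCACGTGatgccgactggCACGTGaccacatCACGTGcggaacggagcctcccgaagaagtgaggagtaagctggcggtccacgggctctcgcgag
Ctsd: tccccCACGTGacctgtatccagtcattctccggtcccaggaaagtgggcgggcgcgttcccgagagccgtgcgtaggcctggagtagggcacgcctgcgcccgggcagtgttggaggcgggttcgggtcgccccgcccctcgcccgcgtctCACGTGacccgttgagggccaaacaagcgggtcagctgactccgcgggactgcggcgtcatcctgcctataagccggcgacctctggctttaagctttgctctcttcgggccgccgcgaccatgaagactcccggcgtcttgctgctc
Mcoln1: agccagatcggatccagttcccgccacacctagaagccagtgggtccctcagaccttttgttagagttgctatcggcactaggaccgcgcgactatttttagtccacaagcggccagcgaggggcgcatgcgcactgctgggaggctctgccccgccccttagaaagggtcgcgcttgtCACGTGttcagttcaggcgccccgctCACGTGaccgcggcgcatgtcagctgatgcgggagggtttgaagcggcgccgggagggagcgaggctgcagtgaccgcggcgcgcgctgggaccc
Atp6v1a: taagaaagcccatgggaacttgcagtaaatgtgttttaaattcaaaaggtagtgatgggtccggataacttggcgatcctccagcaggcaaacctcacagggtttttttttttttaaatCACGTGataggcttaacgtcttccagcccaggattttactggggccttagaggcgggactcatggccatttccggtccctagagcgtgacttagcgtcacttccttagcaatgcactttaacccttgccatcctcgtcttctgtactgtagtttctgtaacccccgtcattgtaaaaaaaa
Grn: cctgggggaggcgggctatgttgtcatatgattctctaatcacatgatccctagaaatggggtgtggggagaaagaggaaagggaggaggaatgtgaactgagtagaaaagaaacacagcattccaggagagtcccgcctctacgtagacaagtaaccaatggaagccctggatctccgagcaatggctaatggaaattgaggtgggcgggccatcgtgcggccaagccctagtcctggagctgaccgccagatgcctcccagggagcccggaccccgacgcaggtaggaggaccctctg
Wipi1: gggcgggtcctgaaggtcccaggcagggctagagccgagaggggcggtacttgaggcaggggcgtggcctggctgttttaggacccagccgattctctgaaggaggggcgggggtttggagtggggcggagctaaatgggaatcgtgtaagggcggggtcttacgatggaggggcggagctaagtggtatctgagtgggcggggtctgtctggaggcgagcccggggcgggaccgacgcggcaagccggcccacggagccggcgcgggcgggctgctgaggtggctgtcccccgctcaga
The E-boxes of Lamp1 stand within 61 bases before the start, and the octamer of Ctsd begins 99 bases before it.

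**Figure D1:**
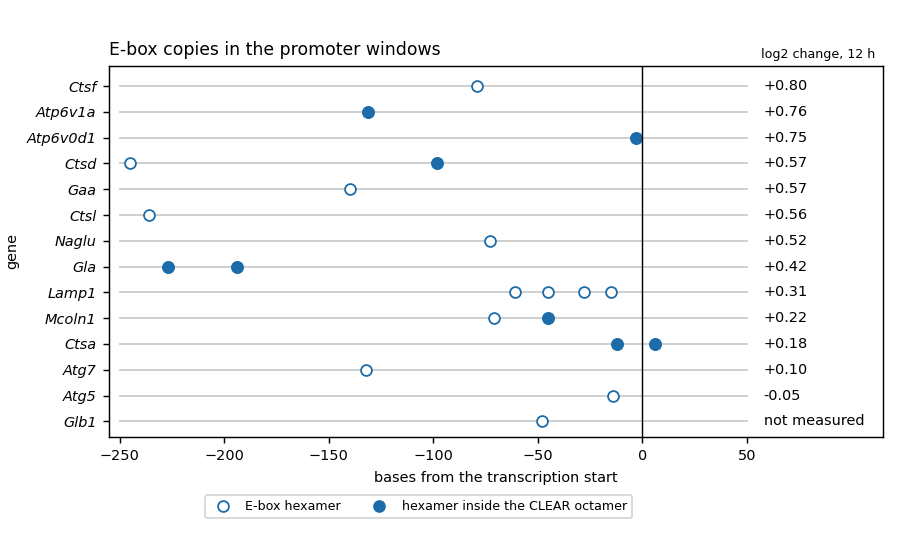
Each row is a gene whose promoter window holds the hexamer, and the horizontal axis gives bases from the transcription start. Open circles are hexamers alone, filled circles are hexamers inside the octamer, and the right-hand column gives the log2 change at 12 h (LBH589 minus DMSO), which ran from -0.05 for Atg5 to 0.80 for Ctsf.

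More of these genes were higher than lower with LBH589 at both times. At 6 h, 11 of 39 were higher (28.2%, against 8.49% of all 18652 genes) and 2 were lower (5.13%, against 7.31%), and 15.8% of all genes were called either way. At 12 h, 14 were higher (35.9%, against 9.13% of all genes) and 3 were lower (7.69%, against 9.07%), with 18.2% of all genes called. A gene was called where its limma p, adjusted over all 18652 genes, was under 0.05. All of the 39 but Wipi1 lay above the array median on every array, and many of the 18652 genes are dimmer. Among 13822 genes above the array's 50th percentile on at least 3 arrays, 1698 were called higher and 1451 lower at 6 h. At 12 h these counts were 1754 and 1800. That fit called 14 of the 39 higher and 2 lower at 6 h, and 14 and 3 at 12 h. The median log2 change (LBH589 minus DMSO) of the 39 genes was 0.32 at 6 h and 0.37 at 12 h, and that of all genes was -0.02 and 0.01. Of the 39, 11 were called at both times and 19 at either time, counts for which the share of all genes was not taken.

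The labels pair the arrays by tumour, and a fit with the tumour as a block called more of these genes, as it did of all genes. It called 23 higher and 4 lower at 6 h (59.0% and 10.3%, against 18.0% and 16.0% of all genes, 34.0% either way), and 27 higher and 3 lower at 12 h (69.2% and 7.69%, against 18.6% and 18.5%, 37.1% either way). In 27 of the 39 genes, LBH589 lay above DMSO in all 6 pairs of cultures (3 tumours at 2 times), against 19.7% of all genes, and in 3 it lay below DMSO in all 6, against 18.7%. At each time, 20 of the 39 were higher on every LBH589 array than on any DMSO array, and 3 were lower on every LBH589 array. Among all genes such separation was seen upward in 16.4% at 6 h and 16.6% at 12 h, and downward in 16.5% and 15.4%. The calls of 8 of the 13 genes called at 6 h and of 9 of the 17 called at 12 h held with any of the 12 arrays left out. Without the LBH589 array of MP570 at 12 h, 10 of the 39 were called at 12 h. Without MP570 in every group, 4 were called at each time, and without MP525 in every group, 5 were called at 6 h and 10 at 12 h. With the block, 19 were called at each time without MP570 and 21 and 22 without MP525. A gene called with the block alone was called with the block and not without it, on the values as deposited. Losses given for single genes below are from the fit without the block. In the fit with it, all 13 of the 6 h calls held without any array or tumour. All 17 of the 12 h calls held without any array, and all but Psap, Cd63, Npc1 and Gabarapl1 held without any tumour.

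**Figure D2:**
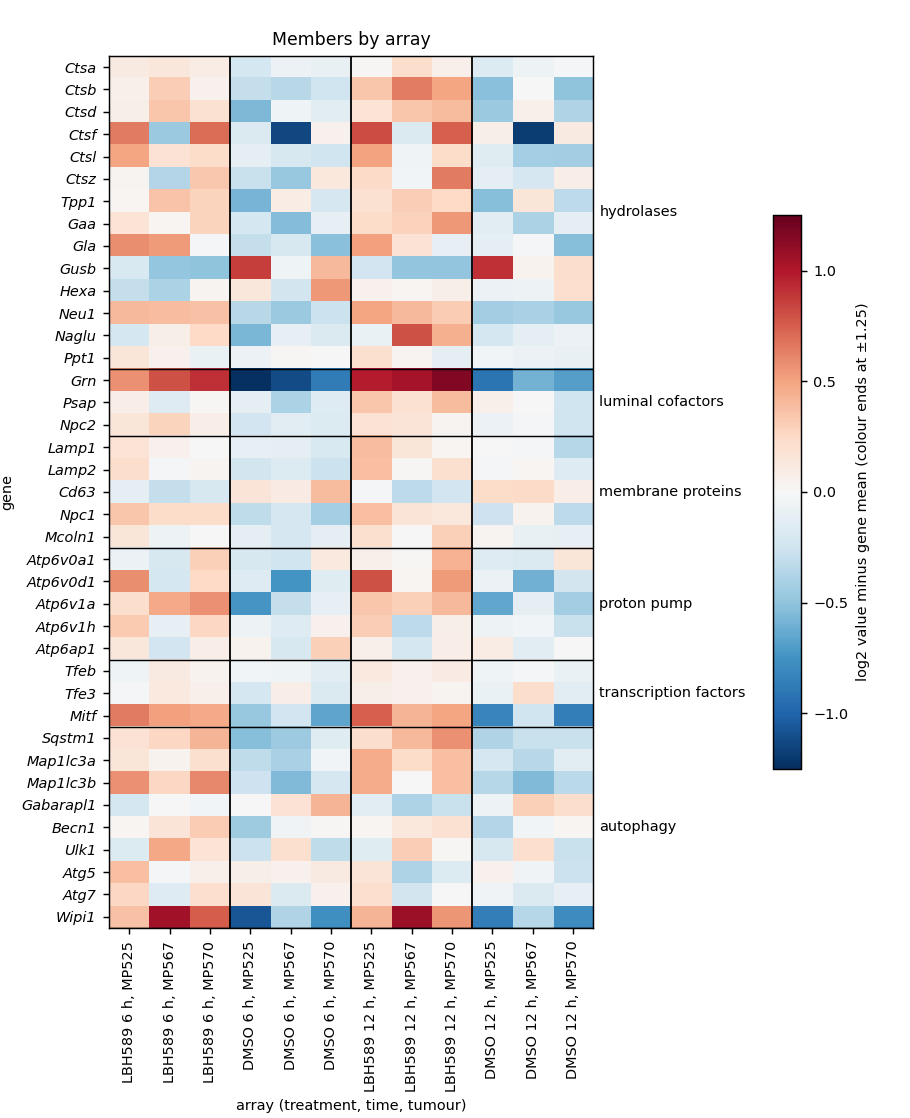
Rows are the 39 genes grouped by role and columns are the 12 arrays by treatment, time and tumour. Colour gives the log2 value minus the gene's mean over all arrays, and it shows Grn, Wipi1 and Mitf higher in every LBH589 array than in any DMSO array, and Gusb lower.

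Among the 34 measured genes with a promoter window, the 13 with the hexamer held 3 called higher and 0 lower at 6 h, and 4 higher and 0 lower at 12 h. The 21 without it held 7 higher and 2 lower at 6 h, and 7 higher and 3 lower at 12 h. With the block these counts were 9 and 0 at 6 h and 11 and 0 at 12 h with the hexamer, and 10 and 4, then 12 and 3, without it. Median log2 changes were 0.44 and 0.52 with the hexamer, and 0.21 and 0.23 without it. The range with the hexamer was narrower (0.07 to 0.80 at 6 h) than without it (-0.80 to 1.85). No test was made of this difference. The shares of all genes given above stand against these counts too, and against the counts by role below.

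The luminal proteins that assist the enzymes held the largest change. Grn encodes progranulin, a secreted and lysosomal protein whose loss causes a lysosomal storage disease and frontotemporal dementia in humans. Progranulin transcripts had log2 values at 6 h of 10.86, 11.09 and 11.21 with LBH589 (MP525, MP567 and MP570), against 9.02, 9.17 and 9.43 with DMSO. At 12 h they were 11.28, 11.34 and 11.46 with LBH589, against 9.39, 9.70 and 9.60 with DMSO. The lowest LBH589 value lay more than 1 log2 unit above the highest DMSO value. Grn rose by 1.85 ± 0.14 at 6 h and 1.79 ± 0.14 at 12 h (log2 change ± SE, n = 3 arrays a group, limma adjusted p = 3.45e-05 and 2.93e-05), which is 3.6-fold and 3.46-fold. The rise within the tumours ran from 1.63 to 1.92.

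Psap encodes prosaposin, the precursor of the saposins that present lipids to hydrolases. At 12 h it had log2 values of 12.23, 12.08 and 12.29 with LBH589, against 11.95, 11.88 and 11.64 with DMSO, and it rose by 0.38 ± 0.11 (limma adjusted p = 0.0366). This call was lost without any of 5 arrays (the LBH589 12 h arrays of MP525 and MP570, the LBH589 6 h array of MP570 and the DMSO 12 h arrays of MP567 and MP570), with adjusted p up to 0.139. At 6 h the log2 change of Psap was 0.20 (limma adjusted p = 0.273). Npc2 encodes the soluble carrier that hands cholesterol to NPC1. At 6 h it had log2 values of 10.63, 10.76 and 10.56 with LBH589, against 10.24, 10.34 and 10.31 with DMSO, with no overlap. Npc2 rose by 0.35 ± 0.10 at 6 h (limma adjusted p = 0.0395), and that call ended without any of 7 arrays, namely all 6 arrays of 6 h and the DMSO 12 h array of MP525 (adjusted p up to 0.13). At 12 h its log2 change was 0.23 (limma adjusted p = 0.153, and 0.0254 with the block).

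**Figure D3:**
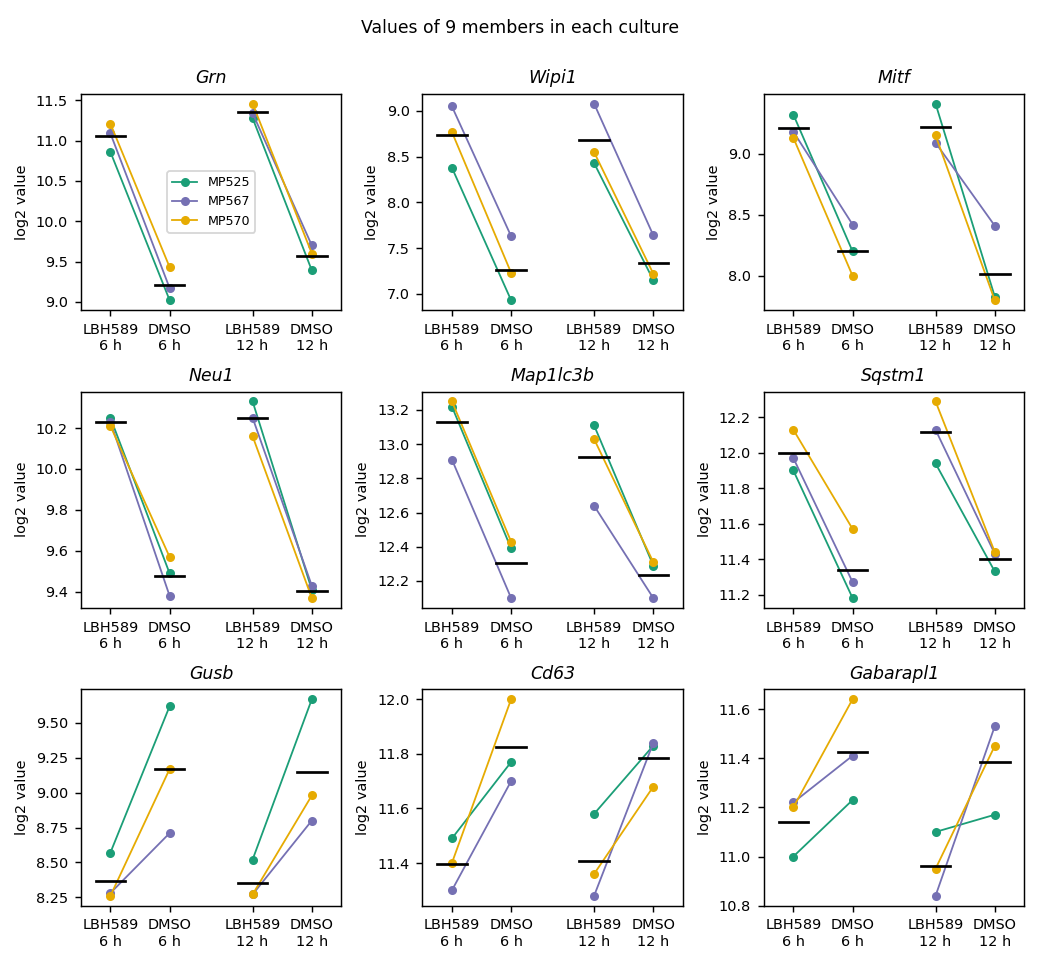
Panels give the log2 values of 9 genes in each culture, with LBH589 left of DMSO at 6 h and at 12 h, lines joining cultures of a tumour and black bars marking group means. Grn, Wipi1, Mitf, Neu1, Map1lc3b and Sqstm1 lie higher in LBH589 in every tumour, and Gusb, Cd63 and Gabarapl1 lie lower; the vertical axes differ and do not start at 0.

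The 14 measured hydrolases held 3 called higher and 1 lower at 6 h, and 5 higher and 1 lower at 12 h, with median log2 changes of 0.44 and 0.50. With the block these counts were 9 and 2, then 11 and 1. Neu1, the lysosomal sialidase, had similar values in the 3 tumours. At 6 h these were 10.25, 10.23 and 10.21 with LBH589, against 9.49, 9.38 and 9.57 with DMSO, and at 12 h 10.33, 10.25 and 10.16 with LBH589, against 9.41, 9.43 and 9.37 with DMSO (log2). Neu1 rose by 0.75 ± 0.10 and 0.84 ± 0.10 (limma adjusted p = 0.000661 and 0.000295), or 1.69-fold and 1.79-fold, and stayed called without any array or tumour.

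Cathepsins are the proteases of the lysosome, and 6 were among the 39 genes. Ctsb, a cysteine protease, had log2 values at 12 h of 11.45, 11.74 and 11.59 with LBH589, against 10.58, 11.09 and 10.60 with DMSO. It rose by 0.84 ± 0.14 at 12 h (limma adjusted p = 0.00212), and this call was lost without MP570 in every group (0.0732). The 12 h call of Ctsb held without any tumour in the fit with the block. At 6 h its log2 change was 0.44 (limma adjusted p = 0.0568, and 0.00265 with the block). Ctsl, another cysteine protease, had log2 values at 6 h of 12.20, 11.88 and 11.93 with LBH589, against 11.58, 11.50 and 11.46 with DMSO. At 12 h these were 12.20, 11.66 and 11.93 with LBH589, against 11.56, 11.28 and 11.27 with DMSO, so the groups did not overlap at either time. Ctsl rose by 0.49 ± 0.14 and 0.56 ± 0.14 (limma adjusted p = 0.0332 and 0.0152). The 6 h call was lost without each of 5 arrays, all but the LBH589 array of MP567 among the 6 h arrays (adjusted p up to 0.127). At 12 h any of 3 omissions ended it, those of the LBH589 array of MP525 and of the DMSO arrays of MP567 and MP570 (up to 0.0578).

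Ctsd, the aspartic protease of the lysosome, rose by 0.57 ± 0.16 at 12 h (limma adjusted p = 0.0294), with log2 values of 11.69, 11.87 and 11.92 with LBH589, against 11.06, 11.58 and 11.14 with DMSO. The call was lost without any of 4 of the 12 h arrays (LBH589 of MP567 and MP570, DMSO of MP525 and MP570), with adjusted p up to 0.106. At 6 h its log2 change was 0.45 (limma adjusted p = 0.0799, and 0.00117 with the block). Ctsf, a cysteine protease, had the widest range of tumour means among the 39 genes (1.14 on the log2 scale). At 12 h its log2 values were 9.76, 8.76 and 9.68 with LBH589, against 9.0, 7.74 and 9.04 with DMSO, so the LBH589 array of MP567 lay below the DMSO arrays of the other tumours. Ctsf had log2 changes of 0.72 ± 0.45 and 0.80 ± 0.45 without the block (limma adjusted p = 0.342 and 0.259), and 0.72 ± 0.10 and 0.80 ± 0.10 with it (5.29e-05 and 1.95e-05). Ctsa, the protective protein of the sialidase, had smaller log2 changes of 0.24 and 0.18, called with the block alone (limma adjusted p = 0.0137 and 0.0461). Ctsz, which trims carboxy ends, had 0.21 and 0.37 and was called at 12 h with the block alone (limma adjusted p = 0.00189).

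Gla, alpha-galactosidase A, had log2 values at 6 h of 9.35, 9.30 and 8.76 with LBH589, against 8.48, 8.57 and 8.25 with DMSO, and it rose by 0.70 ± 0.21 (limma adjusted p = 0.037). That call was lost without each of 5 single 6 h arrays, all but the LBH589 array of MP570 (adjusted p up to 0.13). At 12 h its log2 change was 0.42 (limma adjusted p = 0.192, and 0.00501 with the block). Gaa, the acid alpha-glucosidase that digests glycogen, had log2 values at 12 h of 10.87, 10.94 and 11.19 with LBH589, against 10.50, 10.24 and 10.53 with DMSO. It rose by 0.57 ± 0.14 (limma adjusted p = 0.0165), and this call ended without the DMSO array of MP567 or the LBH589 array of MP570 at 12 h (adjusted p up to 0.0678). At 6 h its log2 change was 0.44 (limma adjusted p = 0.0565, and 0.000825 with the block).

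Gusb, beta-glucuronidase, went down. Its log2 values at 6 h were 8.57, 8.28 and 8.26 with LBH589, against 9.62, 8.71 and 9.17 with DMSO, and at 12 h they were 8.52, 8.27 and 8.27 with LBH589, against 9.67, 8.80 and 8.98 with DMSO. Every LBH589 value lay below every DMSO value, and MP525 had the highest DMSO values. Gusb fell by 0.80 on the log2 scale at each time (SE 0.25, limma adjusted p = 0.0495 and 0.0445, and 0.0003 and 0.000264 with the block), to 0.576 of its DMSO level. Without the block, leaving out each of 9 of the 12 arrays ended the call at each time, with adjusted p up to 0.176 at 6 h and 0.156 at 12 h. The arrays whose loss kept it were at 6 h the DMSO 12 h array of MP525 and both DMSO arrays of MP567, and at 12 h the DMSO 6 h array of MP525 and both DMSO arrays of MP567.

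Tpp1, a peptidase that removes tripeptides, had log2 changes of 0.46 and 0.49, called with the block alone (limma adjusted p = 0.00379 and 0.0022). Naglu, which degrades heparan sulphate, had 0.32 and 0.52 and was called at 12 h with the block alone (limma adjusted p = 0.00424). Hexa, the alpha subunit of beta-hexosaminidase, had -0.37 at 6 h, called lower with the block alone (limma adjusted p = 0.0241), and 0.02 at 12 h. The 6 h log2 values of Hexa were 8.41, 8.31 and 8.73 with LBH589, against 8.85, 8.47 and 9.25 with DMSO, so the groups overlapped while each tumour's own difference was negative. Ppt1, which removes fatty acids from proteins, had 0.06 and 0.11 and was called in neither fit.

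**Figure D4:**
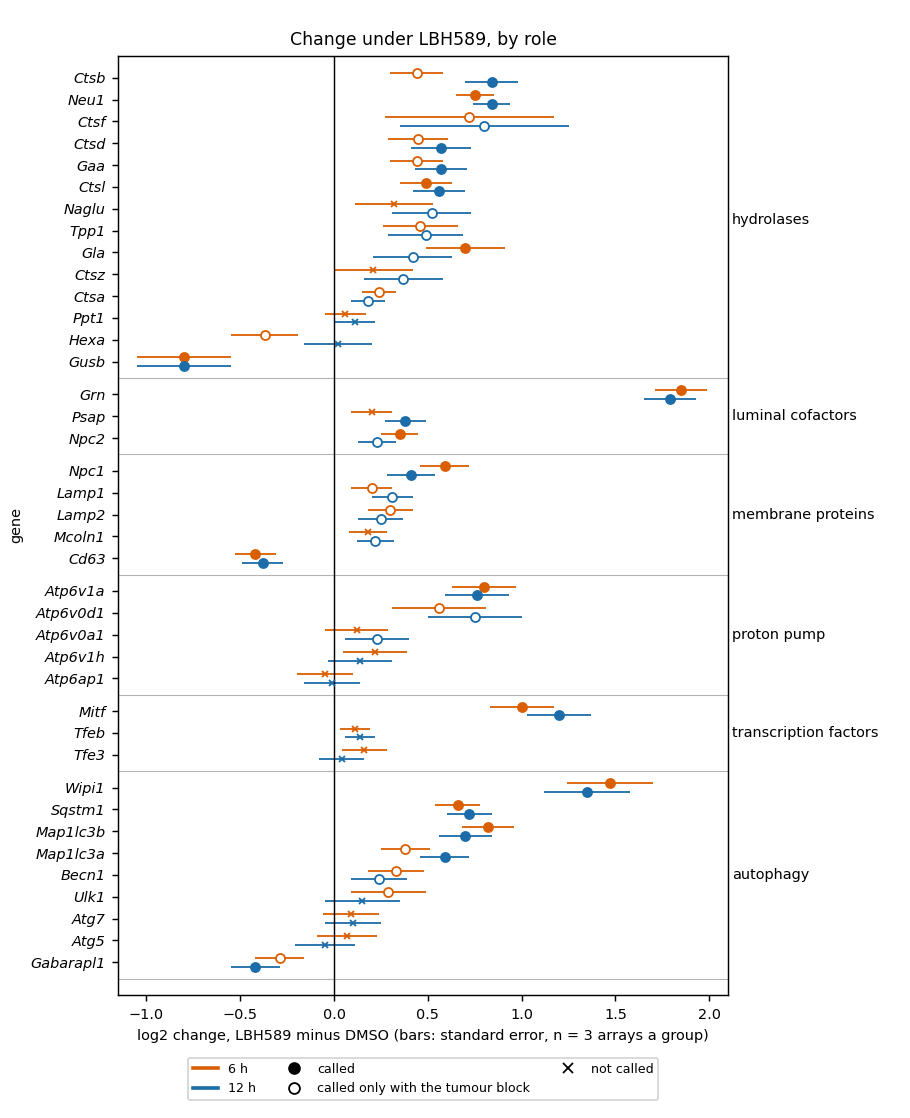
Points give the log2 change of each gene (LBH589 minus DMSO) at 6 h and 12 h with its standard error from the fit without the block, grouped by role. Filled points were called in that fit, open points with the tumour block alone, and crosses mark values called in neither. Grn stands at 1.85 and 1.79 and Gusb at -0.80 at both times, the ends of the range.

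The 5 membrane proteins held 1 called higher and 1 lower at each time, with median log2 changes of 0.20 and 0.25, and with the block 3 higher and 1 lower at 6 h and 4 higher and 1 lower at 12 h. Npc1, which exports cholesterol from the lysosome, had log2 values at 6 h of 10.16, 10.04 and 10.04 with LBH589, against 9.49, 9.60 and 9.39 with DMSO. At 12 h these were 10.19, 9.97 and 9.94 with LBH589, against 9.55, 9.84 and 9.48 with DMSO. Npc1 rose by 0.59 ± 0.13 and 0.41 ± 0.13 (limma adjusted p = 0.00936 and 0.0453). The 6 h call was lost without MP525 or MP570 in every group (adjusted p up to 0.121), and it held without any tumour with the block. Each of 11 single omissions ended its 12 h call, all but that of the DMSO 12 h array of MP567 (adjusted p up to 0.156).

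Cd63, a tetraspanin of lysosomes and secreted vesicles, went down. Its log2 values at 6 h were 11.49, 11.30 and 11.40 with LBH589, against 11.77, 11.70 and 12.00 with DMSO, and at 12 h they were 11.58, 11.28 and 11.36 with LBH589, against 11.83, 11.84 and 11.68 with DMSO. The groups did not overlap at either time. Cd63 fell by 0.42 and 0.38 on the log2 scale (SE 0.11, limma adjusted p = 0.0218 and 0.0322). The 6 h call was lost without any of 3 of the 6 h arrays (LBH589 of MP567 or MP570, DMSO of MP570; adjusted p up to 0.0817), and the 12 h call without any of 4 of the 12 h arrays (LBH589 of MP567 or MP570, DMSO of MP525 or MP567; up to 0.103). Lamp1 and Lamp2, the abundant glycoproteins that line the lysosomal membrane, had log2 changes of 0.20 and 0.31 and of 0.30 and 0.25, called with the block alone (limma adjusted p = 0.0332 and 0.00238, and 0.0166 and 0.0409). Mcoln1, a calcium channel of the lysosome, had 0.18 and 0.22 and was called at 12 h with the block alone (limma adjusted p = 0.0296).

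Of the 5 pump genes, Atp6v1a was called higher at both times and none was lower, and the median log2 changes were 0.22 and 0.23. Atp6v1a encodes the subunit that hydrolyses ATP. Its log2 values at 6 h were 11.59, 11.84 and 11.94 with LBH589, against 10.63, 11.06 and 11.27 with DMSO, and at 12 h they were 11.72, 11.67 and 11.78 with LBH589, against 10.71, 11.25 and 10.93 with DMSO. The LBH589 arrays were all higher, and MP567 had the smallest difference at 12 h (0.42). Atp6v1a rose by 0.80 ± 0.17 and 0.76 ± 0.17 (limma adjusted p = 0.00881 and 0.0104), calls that were lost without MP570 in every group (0.0767 and 0.111). Both held without any tumour in the fit with the block. Atp6v0d1, a subunit that links both sectors of the pump, had log2 values at 12 h of 12.40, 11.62 and 12.13 with LBH589, against 11.54, 11 and 11.38 with DMSO. It had log2 changes of 0.56 and 0.75 (limma adjusted p = 0.168 and 0.0603, and 4.73e-05 and 4.25e-06 with the block). Atp6v0a1, part of the membrane sector, had 0.12 and 0.23 and was called at 12 h with the block alone (limma adjusted p = 0.0154). Atp6v1h, a regulatory subunit, had 0.22 and 0.14, and Atp6ap1, an accessory protein, had -0.05 and -0.01, and neither was called in either fit.

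Among the 3 transcription factors, Mitf was called and Tfeb and Tfe3 were not. Mitf had log2 values at 6 h of 9.32, 9.18 and 9.13 with LBH589, against 8.20, 8.42 and 8.0 with DMSO, and at 12 h of 9.41, 9.09 and 9.15 with LBH589, against 7.83, 8.41 and 7.80 with DMSO. All LBH589 arrays were higher, and MP567 had the smallest difference at each time (0.75 and 0.67). Mitf rose by 1.0 ± 0.17 and 1.20 ± 0.17 (limma adjusted p = 0.00288 and 0.000857), or 2.0-fold and 2.3-fold. Its 6 h call was lost without MP525 or without MP570 in every group (adjusted p up to 0.0673). That call held without any tumour in the fit with the block. Tfeb lay near the array medians, with group means of 7.29 and 7.35 with LBH589 at 6 h and 12 h, against 7.19 and 7.21 with DMSO. Its log2 changes were 0.11 ± 0.08 and 0.14 ± 0.08 (limma adjusted p = 0.43 and 0.272). Tfe3 had log2 changes of 0.16 ± 0.12 and 0.04 ± 0.12 (limma adjusted p = 0.454 and 0.861). Both factors are regulated mainly by moving between cytoplasm and nucleus, which transcript levels do not show.

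The 9 autophagy genes held 3 called higher and 0 lower at 6 h, and 4 higher and 1 lower at 12 h, with median log2 changes of 0.33 and 0.24. With the block these counts were 6 and 1, then 5 and 1. Wipi1, which binds the phosphoinositide marking sites where autophagosomes form, had log2 values at 6 h of 8.38, 9.05 and 8.77 with LBH589, against 6.93, 7.63 and 7.23 with DMSO. At 12 h these were 8.43, 9.08 and 8.55 with LBH589, against 7.15, 7.64 and 7.22 with DMSO. MP567 was highest in every group, and every LBH589 value lay above every DMSO value. Wipi1 rose by 1.47 ± 0.23 and 1.35 ± 0.23 (limma adjusted p = 0.00173 and 0.00233), or 2.77-fold and 2.55-fold. Its calls were lost without MP570 in every group (0.0691 and 0.0686). They held with the block without any tumour (limma adjusted p = 1.99e-07 and 2.31e-07 on all arrays). Wipi1 lay at or below the array median on 2 arrays.

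The LC3 and GABARAP family moved in both directions. Map1lc3b, the LC3 protein used as the standard mark of autophagosomes, had log2 values at 6 h of 13.22, 12.91 and 13.25 with LBH589, against 12.39, 12.10 and 12.43 with DMSO, and at 12 h of 13.11, 12.64 and 13.03 with LBH589, against 12.29, 12.10 and 12.31 with DMSO. The difference within a tumour at 6 h was 0.81 or 0.82 in each tumour. Map1lc3b rose by 0.82 ± 0.14 and 0.70 ± 0.14 (limma adjusted p = 0.00224 and 0.00462), calls that were lost without MP525 or MP570 in every group (adjusted p up to 0.0576 and 0.0796). Both Map1lc3b calls held with the block without any tumour. Map1lc3a, its close relative, rose by 0.59 ± 0.13 at 12 h (limma adjusted p = 0.00784), and leaving out MP525 or MP570 in every group ended this call (up to 0.104). The 12 h call of Map1lc3a likewise held with the block. At 6 h its log2 change was 0.38 (limma adjusted p = 0.0642, and 0.00389 with the block).

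Gabarapl1, of the GABARAP branch, had log2 values at 12 h of 11.10, 10.84 and 10.95 with LBH589, against 11.17, 11.53 and 11.45 with DMSO. It fell by 0.42 on the log2 scale (SE 0.13, limma adjusted p = 0.0473), most in MP567 and least in MP525 (-0.69 and -0.08). Leaving out each of 8 of the 12 arrays ended this call (adjusted p up to 0.153). The 4 whose loss kept it were the LBH589 12 h array and both DMSO arrays of MP525 and the DMSO 6 h array of MP570. The call was also lost under quantile normalization, under either centring and without a filter. At 6 h the log2 change of Gabarapl1 was -0.29 (limma adjusted p = 0.185, and 0.0471 with the block).

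Sqstm1 encodes p62, the receptor that carries ubiquitin-tagged cargo into autophagosomes and is itself degraded there. Its log2 values at 6 h were 11.90, 11.97 and 12.13 with LBH589, against 11.18, 11.27 and 11.57 with DMSO, and at 12 h they were 11.94, 12.13 and 12.29 with LBH589, against 11.33, 11.43 and 11.44 with DMSO. The groups did not overlap at either time. Sqstm1 rose by 0.66 ± 0.12 and 0.72 ± 0.12 (limma adjusted p = 0.00347 and 0.00189) and stayed called without any array or tumour. Becn1, of the lipid kinase complex that starts autophagosome formation, had log2 changes of 0.33 and 0.24, called with the block alone (limma adjusted p = 0.00863 and 0.0427). Ulk1, the kinase that starts autophagy, had 0.29 and 0.15 and was called at 6 h with the block alone (limma adjusted p = 0.015). Atg5 and Atg7, of the conjugation machinery that attaches LC3 to lipid, had log2 changes between -0.05 and 0.10 and were called in neither fit.

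No change with time was called for these genes. The effect of LBH589 at 12 h minus that at 6 h was called for 0 of 39 genes with limma in either fit, and it had an unadjusted p under 0.05 for 0 without the block and 2 with it. In all genes, 0% and 0.0107% were called. Differences in effect ran from -0.28 (Gla) to 0.39 (Ctsb and Hexa) on the log2 scale. From 6 h to 12 h in DMSO, 0 of 39 were called in either fit (unadjusted p under 0.05 for 1 in each fit), against 0.0214% of all genes, all of them increases. With the block 0.311% of all genes were called, 0.220% higher and 0.0911% lower at 12 h. Grn had the largest such change, 0.36, with a limma unadjusted p of 0.0251 and an adjusted p of 1.0, or 0.141 with the block. From 6 h to 12 h in LBH589, 0 of 39 were called in either fit (unadjusted p under 0.05 for 2 without the block and 12 with it), against 0% and 1.99% of all genes (0.724% higher and 1.27% lower with the block). The largest increases were Grn at 0.30, Psap at 0.33, Ctsb at 0.35 and Naglu at 0.36 on the log2 scale. These changes with time share arrays with the effects of LBH589 at 6 h and 12 h and are not independent of them.

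Levels in the 3 tumours differed for 22 of the 39 genes (56.4%, against 37.4% of all genes; limma F test over the 3 tumours with group held). These were 10 of 14 hydrolases, 1 of 3 luminal proteins, 1 of 5 membrane proteins, 4 of 5 pump genes, 0 of 3 transcription factors and 6 of 9 autophagy genes. The 39 genes are brighter than many genes tested. Among the 13822 genes above the array's 50th percentile on at least 3 arrays, levels differed for 6800, and that fit called 23 of the 39. Ctsf had mean log2 values over 4 arrays of 9.27 in MP525, 8.19 in MP567 and 9.33 in MP570 (limma adjusted p = 4.39e-07). Atp6v0d1 was likewise lowest in MP567, at 11.22, against 11.89 in MP525 and 11.71 in MP570 (limma adjusted p = 7.86e-06). Wipi1 was highest there, at 8.35, against 7.72 in MP525 and 7.94 in MP570 (limma adjusted p = 0.000113). Neu1 and Tfeb had tumour means within 0.05 of each other. With 1 tumour behind each set of 4 arrays, these are differences between 3 tumours and not between kinds of tumour.

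Within the tumours, the median log2 difference of the 39 genes at 6 h was 0.39 in MP525, 0.24 in MP567 and 0.30 in MP570, and at 12 h it was 0.37, 0.18 and 0.44. For all genes these medians lay between -0.04 and 0.07. The number of the 39 above DMSO ran from 30 of 39 (MP567 at 12 h) to 35 of 39 (MP525 at 12 h). A test of whether the effect of LBH589 differed among tumours called 0 of 39 genes with limma (5 had an unadjusted p under 0.05), against 1.06% of all genes, and the smallest adjusted p among the 39 was 0.111, for Gusb.

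**Figure D5:**
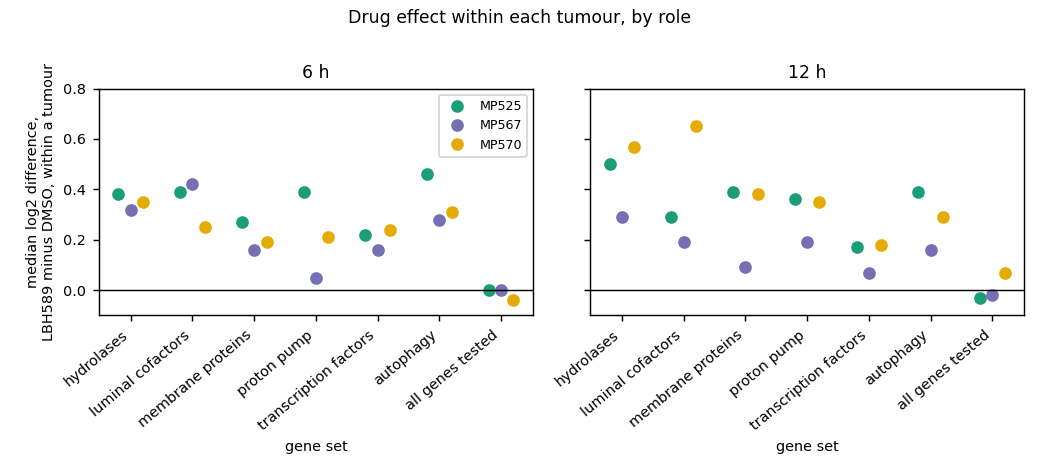
Points give the median log2 difference (LBH589 minus DMSO) of each role's genes within each tumour, at 6 h in the left panel and 12 h in the right. Every median of the 6 roles lies above 0, from 0.05 to 0.65, and the medians of all genes tested lie between -0.04 and 0.07.

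Of 106 further genes of the same pathways, chosen by function, 34 were higher and 10 lower at 6 h, and 31 higher and 10 lower at 12 h. This is set against the 8.49% and 7.31%, then 9.13% and 9.07%, of all genes. With the block 48 were higher and 19 lower, then 45 and 21, against 18.0% and 16.0%, then 18.6% and 18.5%, of all genes. These shares of all genes stand against the counts of each list below too. The median log2 changes of the 106 were 0.22 and 0.20. Among 25 further hydrolases, 9 were higher and 5 lower at 6 h, and 9 higher and 4 lower at 12 h (10 and 6, then 13 and 5, with the block). Man2b1, the lysosomal alpha-mannosidase, rose by 1.53 ± 0.15 and 1.38 ± 0.15 (limma adjusted p = 0.000119 and 0.000161). Siae, a sialate esterase, rose by 1.31 and 1.10, and Gm2a, the activator of ganglioside digestion, by 0.94 and 1.13. Acp2, the lysosomal acid phosphatase, fell by 0.83 and 0.74 (limma adjusted p = 0.00504 and 0.00789). Galc, which digests galactosylceramide, had log2 changes of -0.70 and -0.67, and Arsb, a sulphatase, of -0.66 and -0.73, all called. The further cathepsins Ctsc, Ctsh, Ctso and Ctss were not called without the block, and with it Ctso was lower at both times (-0.36 and -0.33) and Ctsc higher at 12 h (0.69). Among 16 membrane and transport genes, 4 were higher and 1 lower at 6 h, and 6 higher and 0 lower at 12 h (8 and 4 at each time with the block). Slc38a9, an amino acid transporter that signals arginine to mTORC1, rose by 1.04 and 0.91 (limma adjusted p = 0.000776 and 0.00135). Ctns, the cystine exporter, rose by 0.86 and 0.68 and Tmem192 by 0.84 at 12 h, and Mfsd8 fell by 0.79 at 6 h.

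Of 11 genes that sort enzymes to the lysosome, 3 were higher and 1 lower at 6 h, and 2 higher and 2 lower at 12 h. The shares of all genes were 8.49% and 7.31%, then 9.13% and 9.07%. With the block these counts were 4 and 3, then 3 and 4, against 18.0% and 16.0%, then 18.6% and 18.5%, of all genes. Igf2r, the large mannose 6-phosphate receptor, rose by 1.12 ± 0.15 and 0.99 ± 0.15 (limma adjusted p = 0.000624 and 0.000967), Sort1, sortilin, by 0.65 at 6 h and Gnptg, a subunit of the enzyme that makes the mannose tag, by 0.44 at 12 h. Nagpa, which uncovers that tag, fell by 0.48 and 0.42, and Ap1g1, of a clathrin adaptor, fell by 0.36 at 12 h. Of 13 further pump genes, 5 were higher and 1 lower at 6 h, and 4 higher and 0 lower at 12 h (8 and 1, then 7 and 0, with the block). Atp6v1d rose by 0.69 at 6 h, Tcirg1 by 0.65 at 6 h and 0.80 at 12 h and Atp6v0b by 0.62 at 12 h, and Atp6v1g2 fell by 0.39 at 6 h.

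Of 29 further autophagy genes, 10 were higher and 1 lower at 6 h, and 8 higher and 1 lower at 12 h (15 and 2, then 12 and 3, with the block). Atg9a, a lipid scramblase carried by vesicles that seed the autophagosome, rose by 0.91 ± 0.10 and 0.75 ± 0.10 (limma adjusted p = 0.000195 and 0.000466), Atg2a, a lipid transfer protein, by 0.83 at 6 h and Atg101, of the ULK complex, by 0.83 at 12 h. Ulk2, a relative of Ulk1, fell by 0.67 at each time. Of 12 genes of nutrient sensing at the lysosome, 3 were higher and 1 lower at 6 h, and 2 higher and 3 lower at 12 h (3 and 3, then 2 and 5, with the block), with median log2 changes of -0.09 and -0.08. Lamtor1, which anchors the Ragulator complex, fell by 0.75 at 6 h and 0.61 at 12 h. Lamtor2, of the same complex, rose by 0.38 and 0.71, Lamtor3 by 0.30 at 12 h and Fnip1, a partner of folliculin, by 0.41 at 6 h. The Rag GTPases Rragd and Rragb fell by 0.81 and 0.72 at 12 h. Further genes given at 1 time only ranked among the largest changes there, and their change at the other time is not given. How the calls of these further genes held without single arrays is not reported here.

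Macrophages and microglia are rich in lysosomes, and 12 of their markers were read beside these results. None of the 12 was called at either time with limma (0 at 6 h and 4 at 12 h had an unadjusted p under 0.05), and with the block 0 were called at 6 h and 1 higher and 2 lower at 12 h. The mean log2 value of the 12 lay between 7.34 and 7.46 with LBH589 and between 7.37 and 7.50 with DMSO at 6 h, and between 7.26 and 7.50 with LBH589 and between 7.23 and 7.64 with DMSO at 12 h. Between 5 and 7 of the 12 lay above the array median on all 3 arrays of a group. The brightest were C1qb at 8.0 to 8.97 and Cx3cr1 at 8.02 to 8.46 over all arrays, and the lowest single values were those of Ptprc, at 5.81 to 7.30. Cd68, a macrophage marker counted above among the membrane and transport genes, had log2 changes of 0.22 and 0.71. Its limma adjusted p was 0.468 and 0.0129, and 0.161 and 0.000175 with the block. Of 5 astrocyte and 5 fibroblast markers none was called at either time, and with the block 1 astrocyte marker was lower at 6 h, 1 higher and 1 lower at 12 h, and 1 fibroblast marker was higher at 12 h. Of 4 oligodendrocyte markers Cnp rose by 0.76 and 1.02, and of 5 endothelial markers Kdr rose by 0.81 and 0.71 (limma adjusted p = 0.00567 and 0.000891 for Cnp, and 0.0105 and 0.0173 for Kdr). With the block Cnp remained the 1 oligodendrocyte marker called, and the endothelial markers called were Kdr at 6 h, and Kdr, Cldn5 (0.55) and Pecam1 (0.28) at 12 h, all higher. The 5 endothelial markers had positive log2 changes at both times, from 0.10 to 0.81. The part of these markers in the results was not tested.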

How the data were processed

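Total RNA of 12 cultures was measured on an Affymetrix whole-transcript array, as the labelling kit in the labels and the array annotation show. The authors deposited log2 values, one for each probe set, which ran from 1.50 to 14.47. Agilent Feature Extraction 10.7.3.1 is the one tool in the submitters' processing notes, and the steps of summary and normalization are not given in the sources used here. No scan date or batch is given there either, and arrays have no count of depth, so their number limits the precision.

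Of 41345 probe sets, 23521 named 1 gene, 1814 several and 16010 none. Names came from RefSeq through Entrez numbers (23328) or the annotation (193). Where a gene had several probe sets (Npc1 among the members), that of the highest mean level stood for it. Genes above the array's 25th percentile on at least 3 of 12 arrays were tested.

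The 4 group means were fitted with limma 3.58.1 in R 4.3.3 (lmFit, eBayes with trend, 8 residual degrees of freedom), two-sided, with Benjamini-Hochberg adjustment over all genes tested. The fit was tested on simulated data. The labels give each tumour 1 array per group. Deviations from group means correlated at 0.45 to 0.805 within tumours. A fit that holds tumours as blocks, with 6 residual degrees of freedom, is therefore given where it changes a call. Between tumours the deviations correlated at -0.51 to -0.0577, and subtracting group means by itself pushes these values below 0. Cultures of 1 tumour are not separate animals of a group. Alternatives were this block, quantile normalization, centring on medians or reference genes, other filters, the mean of probe sets, no trend and leaving out each array or tumour.

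Members, gene lists and tests were chosen with earlier results of these data known. All members are named. From each further list at most the 2 largest rises and 2 largest falls called at each time are named. The 4 further cathepsins, Cd68 and the markers named were chosen after their values were seen. Lysosomal and other listed genes without a probe set of their own were not analysed here.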

Additional observations from a re-analysis of the deposited data

Results flagged for a closer look

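Among the 106 further genes of these pathways, 2 (1.89%, against 1.06% of all genes) had an effect of LBH589 that differed among the tumours. Tpcn1, which encodes a cation channel of endosomes and lysosomes, had log2 differences (LBH589 minus DMSO) of 0.19 in MP525, 1.03 in MP567 and -0.06 in MP570 at 6 h, and of 0.08, 0.86 and -0.67 at 12 h (limma F test, adjusted p = 0.00649). The largest differences were in MP567 at both times, MP525 lay slightly above DMSO and MP570 lay below it. Atg4c, a protease that processes LC3 and GABARAP proteins, had -0.09, -0.98 and -0.10 at 6 h, and 0.31, -0.74 and -0.16 at 12 h (limma F test, adjusted p = 0.0303), again with the widest difference in MP567. Each tumour gave 1 pair of arrays at each time, and what sets MP567 apart was not tested.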

How the results depend on the processing

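With the tumour as a replicate block, 27 of the 39 genes were called at 6 h and 30 at 12 h, and of all genes 6333 and 6928, with 2 for the difference in effect, 58 for time in DMSO and 371 for time in LBH589. The block leaves the tumours' own levels out of the spread, and it ended no call among the 39. Every gene called without the block kept its direction under quantile normalization, both centrings, both other filters, the mean of probe sets and the fit without a trend. Some calls were lost and others were gained. At 6 h quantile normalization lost Gla, either centring lost Npc2, and testing without a filter lost Gusb. At 12 h quantile normalization lost Cd63 and Gabarapl1, centring on medians lost Ctsd, Gabarapl1 and Npc1, centring on reference genes lost Gabarapl1, no filter lost Gabarapl1, Gusb and Npc1, and the mean of probe sets lost Npc1. Gains at 6 h were Gaa with quantile normalization, Ctsb, Gaa and Map1lc3a with the filter at the 50th percentile, and Map1lc3a without a trend. At 12 h quantile normalization gained Atp6v0d1, Lamp1 and Mcoln1, and centring on reference genes gained Atp6v0d1 and Lamp1. The cause of these losses and gains was not tested. Centring on reference genes moved the median of all genes at 6 h from -0.02 to -0.11 and the split of calls from 1584 higher and 1364 lower to 1044 and 1857, while the 39 genes stood at 10 higher and 2 lower. Quantile normalization called 2 of all genes for time in LBH589, and without a trend 100 of all genes differed in effect among tumours, against 198. Over the fits that left out 1 array or 1 tumour, with or without the block, the count of the 39 genes called ran from 4 to 29 at 6 h and at 12 h, lowest without MP570. All genes called ran from 879 to 6569 at 6 h and 1265 to 6845 at 12 h, from 0 to 11 for the difference in effect, 0 to 58 for time in DMSO and 0 to 785 for time in LBH589, where 0 to 3 of the 39 were called. Values near 0 turned sign in genes that were not called: Ppt1 and Atg5 at 6 h were -0.0299 and -0.0253 with reference centring, and Hexa and Atp6ap1 at 12 h were -0.00395 and 0.0701 with quantile normalization. Over the same omissions these and other uncalled values spanned 0, with ranges at 6 h of -0.0179 to 0.134 (Ppt1), -0.0279 to 0.233 (Atp6v0a1), -0.173 to 0.0789 (Atp6ap1) and -0.0542 to 0.145 (Atg5), and at 12 h of -0.0725 to 0.149 (Hexa), -0.00777 to 0.356 (Atp6v1h), -0.0762 to 0.0881 (Atp6ap1), -0.0259 to 0.153 (Tfe3), -0.194 to 0.101 (Atg5) and -0.00708 to 0.211 (Atg7).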
